A study of Mus musculus with 6 samples.

Results

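Heat shock proteins are chaperones that hold, fold or refold other proteins. Of 18193 mouse genes with a probe set of their own, this account covers 9 of that kind, Hspa1a, Hspa1b, Hspb1, Hspb8, Hspa8, Hspa5, Dnajb1, Hsph1 and Hsp90aa1, measured by 25 probe sets of the 45037 non-control probe sets on an expression array. A probe set is a group of short probes that reports 1 transcript. The 25 were all probe sets annotated to 1 of these genes and to no other gene. The genes themselves were chosen by their values in these same arrays, both between the sorted fractions and between arrays of equal replicate number, so the values below are a description. Counts of members that passed a fit over all probe sets are given beside the share of all probe sets that did, and nothing is read from them.

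The cells came from the genital tubercle, the bud that becomes the penis or clitoris, of mouse embryos at 12.5 days post coitum (Theiler stage TS20) on a mixed background. All embryos carried the alleles Shhtm1(EGFP/cre)Cjt and Gt(ROSA)26Sortm3(CAG-EYFP)Hze, so that cells with Cre expressed from Shh start to make a yellow fluorescent protein. Dissociated cells were sorted by fluorescence into reporter-positive cells, labelled urethral epithelium, and reporter-negative cells, the remainder of the tubercle. Recombination is permanent, so the reporter also marks descendants of cells that once made Cre. Each fraction had 3 arrays, and each array held RNA from a pool of male and female littermates, with 3, 5 and 2 embryos in replicates 1, 2 and 3 of either fraction. Whether a positive and a negative array with the same number of embryos shared a litter is not stated in the labels.

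In unstressed cells heat shock factor 1, the transcription factor of the heat shock response, is held inactive, and unfolded protein releases it to bind repeated GAA units in promoters. Hspa1a and Hspa1b, the inducible HSP70 genes, are its classic targets, while Hspa8 is the constitutive cytosolic HSP70 and Hspa5 the HSP70 of the endoplasmic reticulum, induced by the unfolded protein response. Dnajb1 is an HSP40 that delivers clients to HSP70, Hsph1 is an HSP110 that exchanges its nucleotide, Hsp90aa1 is the inducible cytosolic HSP90, and Hspb1 and Hspb8 are small heat shock proteins, of which Hspb1 is also abundant in many epithelia.

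Hspa1a and Hspa1b are neighbours on chromosome 17, 10120 bases apart, at chr17:34969359-34972156 and chr17:34956429-34959238 in assembly GRCm38.p6. The 250 bases before their starts, taken from RefSeq, are shown whole because the array patterns of the 2 genes were alike. These stretches were identical at 247 of 250 bases (98.8%). Capitals mark the only match to GAANNTTC, a pair of inverted GAA units as heat shock factor binds them, at -104 to -97 from the start in either gene. Both genes are on the minus strand and their sequences are given 5′ to 3′ along that strand, at chr17:34972157-34972406 for Hspa1a and chr17:34959239-34959488 for Hspa1b.
Hspa1a: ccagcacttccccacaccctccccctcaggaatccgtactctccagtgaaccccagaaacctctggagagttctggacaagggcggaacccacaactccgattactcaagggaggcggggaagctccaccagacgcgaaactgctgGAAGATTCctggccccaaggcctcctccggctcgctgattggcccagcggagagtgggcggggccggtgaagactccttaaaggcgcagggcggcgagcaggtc
Hspa1b: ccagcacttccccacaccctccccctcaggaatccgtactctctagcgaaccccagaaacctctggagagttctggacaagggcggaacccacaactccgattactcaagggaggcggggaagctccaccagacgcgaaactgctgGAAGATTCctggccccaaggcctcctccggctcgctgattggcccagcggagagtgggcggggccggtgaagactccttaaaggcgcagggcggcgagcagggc

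RefSeq promoters were at hand for 7 of the 9 genes, so Hspa8 and Hsp90aa1 were not searched. GAANNTTC, which reads the same on both strands, occurred in the 250 bases before the start in 6.69% of 32851 promoters and, among these 7 genes, in Hspa1a, Hspa1b and Hspb1. Its counterpart TTCNNGAA, also the same on both strands, occurred there in 7.17% and, among these 7 genes, in Hsph1. The 2 motifs can overlap, and a match is only a match of letters. Stretches of 80 bases show these matches in capitals for Hspb1 (chr5:135887769-135887848, plus strand), which carried 2, and Hsph1 (chr5:149636337-149636416, minus strand). For Hspa5 (chr2:34771980-34772059, plus strand) capitals mark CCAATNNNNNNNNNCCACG, the endoplasmic reticulum stress element, which was searched on both strands and lay in 0.113% of promoters.
Hspb1: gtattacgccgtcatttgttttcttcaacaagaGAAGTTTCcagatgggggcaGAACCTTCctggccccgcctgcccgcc
Hsph1: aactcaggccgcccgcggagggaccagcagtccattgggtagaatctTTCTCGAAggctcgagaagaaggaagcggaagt
Hspa5: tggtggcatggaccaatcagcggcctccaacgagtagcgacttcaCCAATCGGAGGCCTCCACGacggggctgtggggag

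The arrays differed widely in signal, and positive replicate 3 stood apart. Over probe sets with 1 gene the deposited signal had a median of 0.34 there and of 2.15 to 8.84 on the other 5 arrays, and 24.6% of these probe sets exceeded the brightest of 27 bacterial control probe sets that had no added transcript, against 44.0% to 59.3% elsewhere. That brightest control is called background below. Of the 25 heat shock probe sets 14 were above background in positive replicate 3 and 21 to 23 on each other array. Levels below are given as deposited or as normalized log2(signal + 16), where all arrays share 1 distribution. The sort was visible in Shh, at 8.49, 9.78 and 9.92 in positive and 4.06, 4.63 and 4.41 in negative replicates 1, 2 and 3 (log2 difference 5.03, SE 0.48, adjusted p = 0.0148 by limma), and in the keratin gene Krt8, at 4.46 (SE 0.47, adjusted p = 0.0148). Of 10 epithelial markers 10 were higher, after normalization, in every positive than in every negative array. Mesenchymal markers were not removed alike. Their summed normalized signal was 2843.5, 313.9 and 469.7 in positive and 3390.3, 2512.5 and 2681.2 in negative replicates 1, 2 and 3.

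The inducible HSP70 genes differed more between pools than between fractions. In either fraction they were high in the pool of 3 embryos and low in the pools of 5 and 2. The brightest Hspa1b probe set read 308 as deposited in negative replicate 1, from 3 embryos, 27.3 in negative replicate 2, from 5 embryos, and 4.78 in negative replicate 3, from 2 embryos. In positive replicates 1, 2 and 3 it read 356, 44.4 and 1.37. The pool of 3 thus exceeded the pool of 5 by 11.3 times among negative and 8.03 times among positive arrays, while the median signal of all named probe sets was lower in the pool of 3 among negative arrays (7.62 against 8.84) and higher among positive ones (4.73 against 3.56). Against background of 5.36, 8.28 and 2.03 in negative and 4.47, 4.41 and 1.12 in positive replicates 1, 2 and 3, this probe set was above it on all 6 arrays.

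After normalization the same Hspa1b probe set stood at 7.60, 4.84 and 4.83 in negative and at 8.78, 6.41 and 5.32 in positive replicates 1, 2 and 3. The highest value of each fraction was that of the pool of 3, and the fractions overlapped. The mean was 6.84 ± 1.77 in positive and 5.76 ± 1.59 in negative arrays (SD, n = 3 each), a difference of 1.08 on the log2 scale (SE 0.93) that was smaller than the SD of either fraction. Within pools of 3, 5 and 2 the positive array was above the negative one by 1.19, 1.58 and 0.49. Without positive replicate 3 the difference was 1.92 (SE 0.73), and without positive replicate 1 it was 0.11.

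The other 2 Hspa1b probe sets and the Hspa1a probe set were also highest in the pool of 3 in either fraction. Hspa1a read 96.1, 8.39 and 1.61 as deposited in negative and 123, 6.88 and 0.89 in positive replicates 1, 2 and 3. On the log2 scale these were 6.17, 4.35 and 4.27 in negative and 7.33, 4.70 and 4.52 in positive arrays. Hspa1a was below background in both arrays of the pool of 2. Its difference between fractions was 0.59 (SE 0.75), and -0.32 without positive replicate 1, so the sign rested on that array. The 2 genes encode nearly the same protein, and probes shared between them cannot assign signal to either gene alone. The suffix _x_at of an Hspa1b probe set marks probes that can match other transcripts. Probe sets of Hspb1, Hspb8, Hspa8, Hspa5 and Hsp90aa1 carry it too. Probe sequences were not at hand, so sharing could not be checked. The 4 probe sets of the 2 genes are therefore not taken as 4 independent readings.

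**Figure D1:**
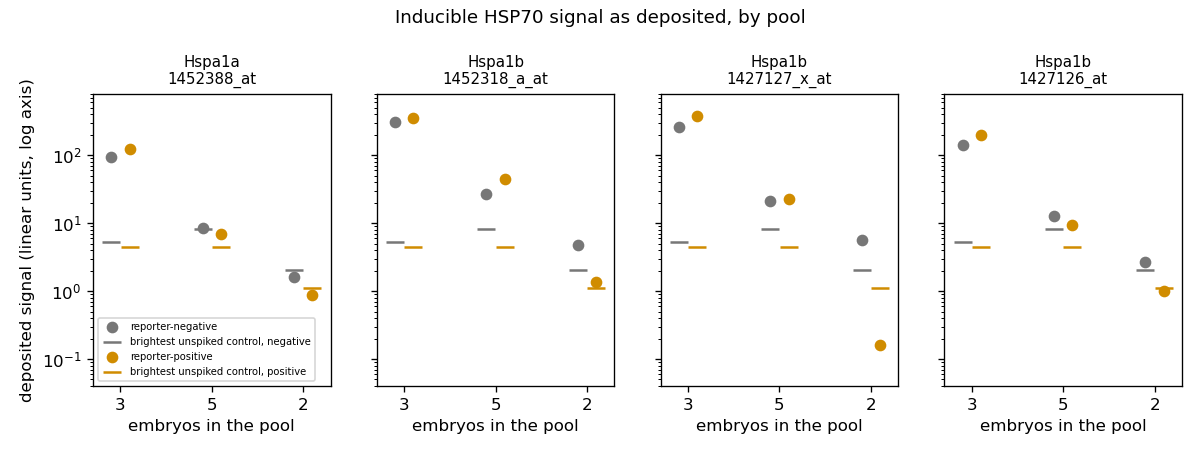
Deposited signal of the 4 probe sets of Hspa1a and Hspa1b (y axis, linear units on a log axis) by number of embryos in the pool (x axis), with reporter-negative arrays in grey and reporter-positive arrays in orange, 1 array per point, and short bars for the brightest unspiked control of that array. In each panel both arrays of the pool of 3 lie above the other 4, for example at 308 and 356 against 1.37 to 44.4 for the brightest Hspa1b probe set.

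No tested probe set separated the pools of 3 from the rest by more than these. The separation was taken as the lower of the 2 arrays from pools of 3 minus the highest of the other 4. It was 1.72, 1.72 and 1.18 on the log2 scale for the Hspa1b probe sets and 1.47 for Hspa1a, ranks 1, 2, 4 and 3 of 24461 tested. Over all tested probe sets 5.53% had both arrays of the pool of 3 above the other 4, and 0.155% by at least 0.5. Among the 25 heat shock probe sets 7 had that order and 4 reached 0.5. Because this comparison took part in choosing the genes, the ranks describe the choice and test nothing. The other 3 with that order were 2 of Hspa5, by 0.15 and 0.03, and a dim one of Hspa8, by 0.24. As deposited these 3 did not have it.

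**Figure D2:**
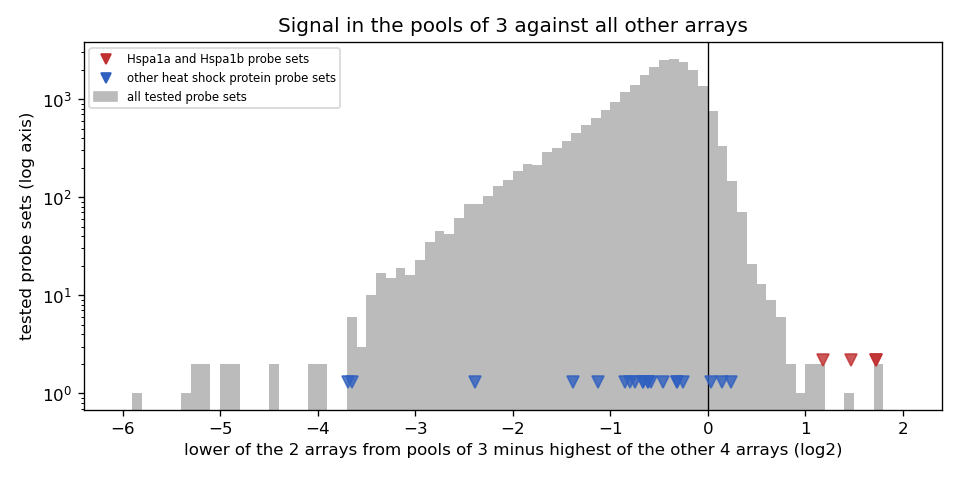
Histogram over the 24461 tested probe sets (y axis, number on a log axis) of the lower array from pools of 3 minus the highest of the other 4 arrays (x axis, log2), with red triangles for Hspa1a and Hspa1b and blue triangles for the other tested heat shock probe sets. The 4 red triangles lie at 1.18 to 1.72, at the right end of the distribution, and the blue ones reach at most 0.24.

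Other measures also moved with the pools of 3. Of 10 mesenchymal markers 5 had both arrays of the pool of 3 above the other 4 (Pdgfra, Lum, Dcn, Col3a1 and Vim, by 0.04 to 0.47), and positive replicate 1 kept the mesenchymal level of a negative array. The ratio of 3-prime to 5-prime signal of actin, a sign of RNA quality, was 4.45 and 4.23 in the pools of 3 and 4.88 to 10.81 on the other arrays, whereas that of Gapdh, 9.27 and 6.18, lay within the others' range of 5.83 to 8.82 for 1 of the 2 only. Immediate early genes, which dissociation can induce, had the order in 3 of 20 tested (Jun, Ier3 and Klf2, by 0.06 to 0.25). Sex-linked genes varied between pools, which mixed males and females. Of 3 probe sets of Xist, the RNA that silences an X chromosome in females, 1 had the order, at 7.83, 6.94 and 6.47 in negative and 7.56, 6.42 and 5.14 in positive replicates 1, 2 and 3, and the brightest did not, at 7.84, 6.48 and 6.78 against 7.60, 7.57 and 7.69. The Y-linked Eif2s3y was highest in the pool of 5, at 4.95, 5.60 and 4.30 in negative and 4.44, 5.93 and 4.29 in positive arrays. The part of these in the Hspa1a and Hspa1b values was not tested.

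The inducible co-chaperones and HSP90 did not share the pool order after normalization. For Dnajb1 the brighter probe set measured 8.35, 8.06 and 7.27 in negative and 7.60, 7.92 and 7.02 in positive replicates 1, 2 and 3. Its lowest value in each fraction was that of the pool of 2, and positive replicate 1 was below positive replicate 2. The mean was 7.51 ± 0.46 in positive and 7.89 ± 0.56 in negative arrays (SD, n = 3 each), a difference of -0.38 (SE 0.42) with overlapping values. The dimmer Dnajb1 probe set went the other way, at 5.24, 5.26 and 5.20 in positive and 4.93, 4.51 and 4.78 in negative arrays, with no overlap and a difference of 0.49 (SE 0.30). As deposited it read 21.7, 14.4 and 1.29 in positive and 24.4, 13.5 and 4.47 in negative arrays, which overlapped. Both arrays of the pool of 3 were thus above the others as deposited, the order of Hspa1a and Hspa1b.

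Hsph1 measured 7.86, 8.04 and 8.24 in negative and 7.70, 7.77 and 8.45 in positive replicates 1, 2 and 3 with its brighter probe set. The fractions overlapped and differed by -0.07 (SE 0.36), and the sign turned when negative replicate 3 (0.02) was left out, or positive replicate 1 (0.06) or 2 (0.03). After normalization the dimmer Hsph1 probe set was lower in all 3 positive arrays, at 5.27, 5.20 and 4.37 against 5.72, 5.59 and 5.85, and positive replicate 3 was below background for it. Its difference was -0.77 (SE 0.37), and -0.52 (SE 0.30) without that array. As deposited this probe set read 22.59, 13.38 and 0.53 in positive and 62.65, 73.96 and 14.49 in negative arrays, which overlapped.

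Hsp90aa1 measured 9.24, 9.36 and 9.53 in negative and 9.52, 9.51 and 9.56 in positive replicates 1, 2 and 3. All 6 values lay between 9.24 and 9.56, and the difference was 0.16 (SE 0.20). Another bright probe set gave 0.66 (SE 0.34), with 9.32 in positive replicate 1 and 7.95 in negative replicate 1, and the next one gave 0.42 (SE 0.30). The remaining 2 Hsp90aa1 probe sets were above background on 2 and 1 of 6 arrays, and the dimmest was the only one of the 25 below the signal filter of the fit. One of them read 6.53 in positive replicate 3 and 4.03 to 4.38 on the other arrays.

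The constitutive Hspa8 overlapped between the fractions with all 4 probe sets. Its brightest probe set measured 10.76, 10.92 and 10.99 in negative and 10.84, 11.11 and 11.37 in positive replicates 1, 2 and 3. The difference was 0.22 (SE 0.14), and 0.09 (SE 0.20) without positive replicate 3. On the normalized scale both arrays of the pool of 3 were the lowest for this probe set, the reverse of Hspa1b. As deposited the lowest of either fraction was the pool of 2, at 1141 in negative and 80.9 in positive replicate 3. The next 2 Hspa8 probe sets differed by 0.10 and 0.28, and the dim one by -0.20. By their suffix, the brightest probe set and the brighter of these next 2 have probes that can match other transcripts. On the normalized scale both arrays of the pool of 2 were the highest for these next 2, whereas as deposited each was the lowest of its fraction. The dimmer of these next 2 measured 9.18, 9.01 and 9.53 in negative and 9.48, 9.06 and 10.03 in positive replicates 1, 2 and 3.

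Hspa5, which holds nascent chains in the endoplasmic reticulum, was lower on average in positive arrays. The brightest probe set measured 9.80, 9.34 and 9.64 in negative and 9.82, 8.97 and 8.94 in positive replicates 1, 2 and 3. Positive replicate 1 was at the negative level and the other 2 were below every negative array. The difference of -0.35 (SE 0.28) was within the spread of the positive arrays, 9.24 ± 0.50 (SD, n = 3). The other 2 Hspa5 probe sets differed by -1.11 and -0.88, where positive replicate 3 was below background, and by -0.04 and -0.26 without it.

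The small heat shock protein Hspb1 was higher in the reporter-positive cells in every array. Its brighter probe set measured 6.49, 7.78 and 8.40 in positive and 4.76, 4.60 and 5.27 in negative replicates 1, 2 and 3. The fractions did not overlap. The mean was 7.56 ± 0.98 against 4.87 ± 0.35 (SD, n = 3 each), a difference of 2.68 on the log2 scale (SE 0.53), and 2.38 (SE 0.39) without positive replicate 3. As deposited it read 66.6, 132 and 4.84 in positive and 18.5, 16.8 and 8.07 in negative arrays, so that positive replicate 3 exceeded the negative arrays only after normalization. The second Hspb1 probe set, which shares probes by its suffix, gave 5.65, 7.47 and 8.27 against 4.58, 4.32 and 4.82, a difference of 2.55 (SE 0.61).

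On the normalized scale Hspb1 was lowest in the positive pool of 3 and highest in that of 2, the reverse of the brightest Hspa1b probe set, whereas as deposited both were lowest in positive replicate 3. Within pools of 3, 5 and 2 its positive array was above the negative one by 1.73, 3.19 and 3.13. The median of the epithelial markers was also lowest in positive replicate 1, at 1.81, 3.06 and 2.66 above the negative mean in positive replicates 1, 2 and 3. Cdh1 and Dsp were instead lowest in positive replicate 3, at 5.20 and 6.79 against 7.04 and 7.11 in positive replicate 1. Other markers moved with the fraction too. The summed normalized signal of the leukocyte list was 145.0, 161.2 and 67.4 in positive and 40.8, 18.8 and 17.3 in negative replicates 1, 2 and 3, and that of the erythroid list was 1018.4, 1524.5 and 708.3 against 4222.3, 3217.6 and 6137.1. Their part in the Hspb1 values was not tested. In bulk RNA of a sorted fraction, fewer cells of a type and less RNA per cell cannot be told apart.

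Hspb8, a partner of the co-chaperone Bag3, lay near background. Its brightest probe set measured 4.65, 5.58 and 4.83 in positive and 4.46, 4.32 and 4.44 in negative replicates 1, 2 and 3, without overlap and with a difference of 0.61 (SE 0.31). As deposited it read 9.42, 20.45 and 1.08 in positive and 9.92, 7.65 and 2.71 in negative arrays, which overlapped. It was above background on 2 of 3 arrays in either fraction, and in positive replicate 3 it was not, at 1.08 as deposited. A second probe set gave 0.55 (SE 0.31), above background in positive replicates 1 and 2 and on no negative array. The last gave -0.06 (SE 0.15).

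**Figure D3:**
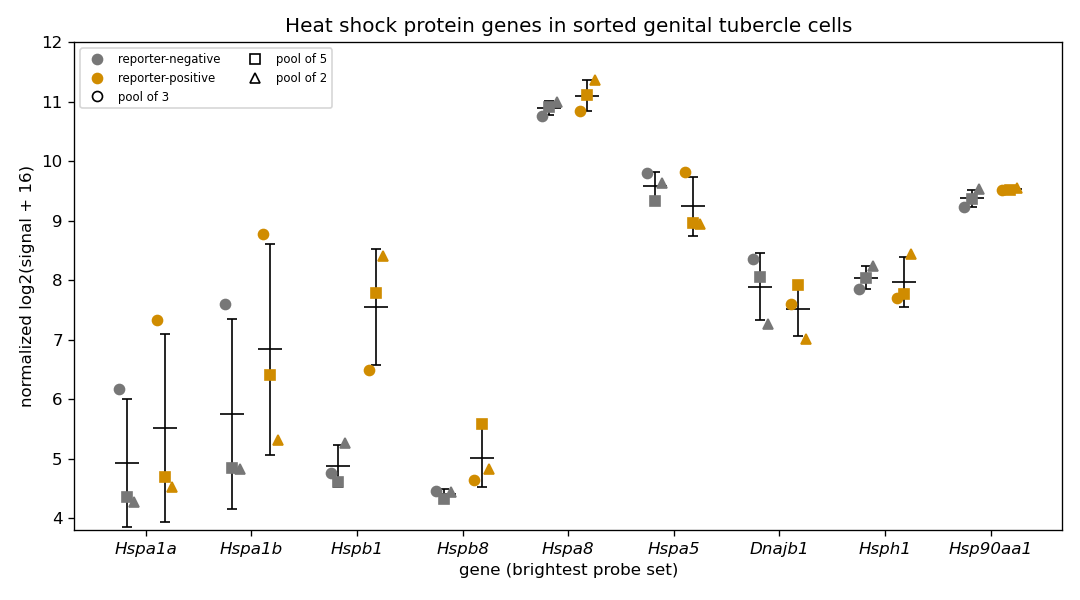
Normalized log2(signal + 16) (y axis) of the brightest probe set of each of the 9 genes (x axis), with 1 point per array, grey for reporter-negative and orange for reporter-positive cells, and circles, squares and triangles for pools of 3, 5 and 2 embryos. Horizontal bars are the mean and error bars the SD of 3 arrays. Circles are the highest points for Hspa1a and Hspa1b, and the orange points lie above the grey ones for Hspb1 at 6.49 to 8.40 against 4.60 to 5.27.

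Across the array few probe sets separated the fractions. Of 24461 tested, 0.0491% passed an adjusted p of 0.05 in the 6 arrays (limma with Benjamini-Hochberg adjustment), and none of the 24 tested heat shock probe sets was among them, with 2 at an unadjusted p under 0.05, as 4.65% of all tested were. Without positive replicate 3, 0.352% passed as higher and 0.0531% as lower, and 2 of the 24 were called, both of Hspb1 and both higher. After normalization all 3 positive arrays were above all 3 negative arrays for 5.59% of tested probe sets and for 4 of the 25, those of Hspb1, Hspb8 and Dnajb1 described above. Since this contrast helped to choose the genes, the counts support nothing about them. In the 5 arrays only the brighter Hspb1 probe set was called when negative replicate 2 or 3 was left out as well. Without negative replicate 1 instead, both of Hspb1 and 2 of Hspa1b were called, among 96 in all. With a pseudocount of 1 or 64 or a filter at the median, only the brighter Hspb1 probe set was called, and with median centring only the dimmer. Without a filter, as deposited or with hybridization control scaling, no heat shock probe set was called. In the 6 arrays, leaving out positive replicate 1 called both Hspb1 probe sets, among 25 called in all. Leaving out positive replicate 2 or any 1 negative array there called no heat shock probe set. In the 5 arrays, leaving out positive replicate 1 or 2 left 1 positive array, whose spread was taken from the negative arrays. The heat shock calls of those fits are therefore not given.

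Directions of the bright members depend on the scaling. As deposited, the median difference of all tested probe sets was -0.39, and that of the 186 brightest, above 9 on the normalized scale, -1.95. Hspa8, Hsp90aa1, Hsph1, Dnajb1 and Hspa5 then differed by -1.63, -1.83, -1.92, -1.83 and -2.18, so Hspa8 and Hsp90aa1 changed sign. Hspb1 still differed by 1.07, or 1.46 relative to the median of all. Hspa1b then differed by 0.14 and Hspa1a by 0.05. With scaling to the hybridization controls Hspa1a turned to -0.04.

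Other chaperone genes showed no call in the 6-array or the 5-array fit. Lists of 141 further genes had 122 with a tested probe set, and with the brightest probe set of each none passed in the 6 or the 5 arrays (limma, 7 at an unadjusted p under 0.05 in either, where 4.65% and 8.17% of all tested probe sets were), while 0.0491% and, for both directions, 0.352% and 0.0531% of all tested probe sets passed. Their median difference was -0.18, against -0.03 over all tested probe sets, and 46 of 122 were positive. Without positive replicate 3 the medians were -0.02 and -0.01.

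Other heat-inducible genes had a median difference of -0.12 over the 17 of 22 that were tested. The number with both arrays of the pool of 3 above the other 4 was 0, where 5.53% of all tested probe sets had that order. Over 17 genes this count is too small to set apart from that share. Dnaja1, an HSP40 of the cytosol, measured 8.57, 8.89 and 9.0 in negative and 8.67, 8.61 and 8.99 in positive replicates 1, 2 and 3. Hspd1, the mitochondrial HSP60, measured 8.42, 8.58 and 9.06 against 8.82, 9.0 and 8.90. Bag3 was near background and measured 4.45, 4.59 and 4.41 against 4.78, 4.17 and 4.12. These 3 genes were picked after their values were seen, as known companions of Hspa1b in the heat shock response. The largest differences of the list were -1.16 (SE 0.43) for Serpinh1, the collagen chaperone, 0.95 (SE 0.47) for Hspa4l and -0.86 (SE 0.62) for Ahsa1, which activates HSP90. For Hspa4l positive replicate 3 read 6.36 and no other array above 4.56, and without it the difference was 0.32. Ahsa1 was at -0.12 without it.

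Heat shock factors gave little signal. Of 6 genes for these factors and their binding partners 4 were tested. Hsf2 differed by 0.02 (SE 0.18) and Hsf4 by -0.16 (SE 0.17), and of the partners Hsbp1 differed by -0.20 (SE 0.40) and Hsf2bp by 0.63 (SE 0.43), which was 0.05 without positive replicate 3. Hsf2 and Hsf4 were above background on 2 of 6 arrays each. Hsf1 is not analysed here. Other small heat shock proteins had 4 of 9 genes tested, with Hspb6 at 0.47 (SE 0.32), Hspb11 at -0.20 (SE 0.41) and Odf1 at 0.14 (SE 0.22). None of the 4 was near the difference of Hspb1.

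Chaperones of the endoplasmic reticulum, the companions of Hspa5, had a median of -0.30 over 26 tested genes, with 6 positive and none called. Pdia3 and Pdia4, disulfide isomerases, differed by -1.32 (SE 0.56) and -1.29 (SE 0.46), and the HSP110 of that compartment, Hyou1, by -1.13 (SE 0.51). Pdia4 measured 5.17, 4.86 and 4.16 in positive and 6.30, 6.59 and 5.16 in negative replicates 1, 2 and 3, so the fractions overlapped between positive replicate 1 and negative replicate 3. With array weights in the 6 arrays, a fit that gives noisier arrays less weight, these 3 genes passed as lower together with Serpinh1 and the prefoldin subunit Pfdn2, 5 of the 122. That fit called 680 probe sets in all. The same 5 genes passed as lower in the 5 arrays with pool size as a block, which called 879, and Pdia4, Pfdn2 and Serpinh1 with array weights in the 5 arrays. Serpinh1 also passed there when positive replicate 1 was left out, with 1 positive array remaining. Without positive replicate 3 the list median was -0.09, while Pdia3, Pdia4, Hyou1 and Serpinh1 stood at -1.02, -1.06, -0.85 and -1.29.

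The remaining lists had medians of -0.33 to -0.06. Other HSP70 and HSP110 genes had a median of -0.17 over 9 genes, with Hspa2 at 0.87 (SE 0.47). Nucleotide exchange factors of HSP70 had -0.33 over 10, with Bag1 at -1.25 (SE 0.60), which was at -0.54 without positive replicate 3. Other DNAJ proteins had -0.20 over 37, with Dnajc9 at -1.36 (SE 0.68), Dnaja2 at -0.98 (SE 0.45) and Dnajc10 at -0.91 (SE 0.64). HSP90 and its co-chaperones had -0.11 over 16, with Hsp90b1 at -0.91 (SE 0.42) and Fkbp4 at 0.72 (SE 0.43). The chaperonin CCT and prefoldin had -0.06 over 14, with Pfdn2 at -1.39 (SE 0.50), Vbp1 at -1.28 (SE 0.75) and Pfdn6 at -1.22 (SE 0.63). Mitochondrial chaperones had -0.27 over 10, with Clpp at -0.83 (SE 0.52). None of these genes passed in the 6 arrays (limma). Without positive replicate 3 several were nearer 0, at 0.31 for Hspa2, -0.46 for Dnajc9, -0.11 for Dnajc10, -0.25 for Vbp1, -0.42 for Pfdn6 and -0.27 for Clpp. Pfdn2 stood at -1.14, Dnaja2 at -0.62, Hsp90b1 at -0.59 and Fkbp4 at 0.44.

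**Figure D4:**
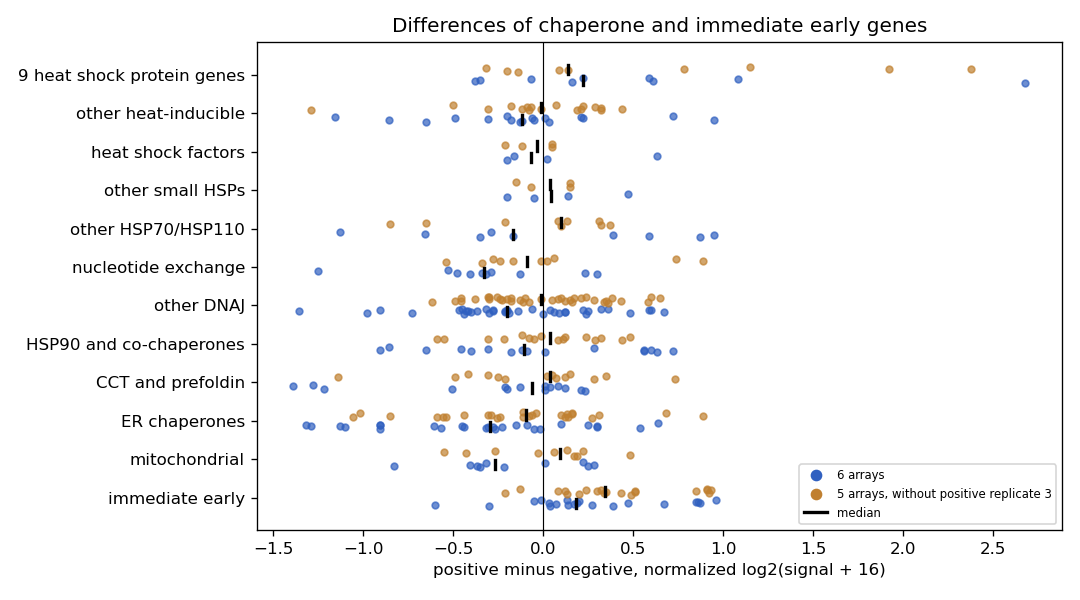
Positive minus negative difference (x axis, normalized log2) of the tested genes of each list (rows), with blue points for the 6 arrays, orange points for the 5 arrays without positive replicate 3, and black bars for medians. Hspb1 at 2.68 in the 6 and 2.38 in the 5 arrays lies to the right of every other gene shown, and list medians of the other chaperones lie between -0.33 and 0.10.

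Immediate early genes were positive in 16 of 20 tested, with a median of 0.18, and none passed (limma). Fos measured 8.52, 8.96 and 8.67 in positive and 8.0, 8.24 and 7.30 in negative replicates 1, 2 and 3, a difference of 0.87 (SE 0.35). Junb differed by 0.96 (SE 0.40) and Egr1, an early zinc finger factor, by 0.86 (SE 0.43). Fos in the pool of 3 was the lowest of the positive and between the other values of the negative arrays. Junb was at 0.51 without positive replicate 3.

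The genes most like the brightest Hspa1b probe set over the 6 arrays, among 11175 tested probe sets that spanned at least 1 on the log2 scale, were Hspa1a (Pearson r = 0.967), the glucose transporter gene Slc2a3 (0.964), Marchf7 (0.956), Luc7l2 (0.942) and Pdk1, a kinase that inhibits pyruvate dehydrogenase (0.922). Pdk1 measured 7.19, 5.83 and 5.07 in negative and 7.36, 6.55 and 5.17 in positive replicates 1, 2 and 3. Those most like Hspb1 were Ints6 (0.998), Plp2 (0.997), Srebf1 (0.995), Cd151 (0.994) and Foxa2 (0.991), a forkhead factor of endodermal epithelia. Foxa2 measured 5.46, 6.79 and 7.46 in positive and 4.02, 4.02 and 4.07 in negative arrays. All points share the 6 arrays and their differences in signal, so these correlations only describe likeness.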

How the data were processed

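Biotin-labelled RNA was hybridized to Affymetrix arrays, per the labels. The authors deposited 1 intensity per probe set and array, read as linear from its range. The submitters' processing notes name GCOS for 1 sample; how signals were summarized or scaled is not given. The 9 genes, the lists and the tests were chosen with earlier results of these data known.

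After 64 control probe sets were set aside, 45037 signals were quantile normalized and taken to log2(signal + 16). This understates changes of dim genes and stretches the noise of dim arrays. One gene was annotated to 34945, several to 932 and none here to 9160. Gene identifiers of the GRCm38.p6 RefSeq table gave current symbols for 34741. Probe sets with 1 gene and a mean above the 30th percentile, 24461, were fitted with limma 3.58.1 in R 4.3.3 (lmFit, eBayes with trend, Benjamini-Hochberg, threshold 0.05), and the fit was tested on simulated data. SEs are those of the fit. Background was the brightest of 27 unspiked control probe sets on an array. List genes used the probe set with the highest mean. By rule, named genes were all members, Shh, Krt8, the up to 3 largest differences of each list and the 5 most like Hspb1 or Hspa1b. Genes named for their order over pools, the sex-linked genes, and Dnaja1, Hspd1, Bag3 and Hsf2 were chosen after their values were seen. Epithelial, mesenchymal, erythroid, leukocyte and endothelial marker lists of 10 genes each were also computed, with median differences of 2.28, -1.66, -1.82, 0.38 and 0.13. The number of arrays limits precision, and p-values measure the spread between arrays. Deviations from fraction means correlated at 0.119, 0.03 and 0.101 between arrays of equal pool size. Between arrays of unequal pool size they correlated at -0.125 to 0.061. These values do not settle whether the pools were pairs. The main fits did not pair them, and the alternative with a block for pool size did. Alternatives covered scaling, pseudocount, filters, array weights, a block for pool size and left-out arrays.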

Additional observations from a re-analysis of the deposited data

How the results depend on the processing

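Over 13 alternatives the difference of the brightest probe set was positive throughout for Hspb1 (0.96 to 3.63), Hspb8 (0.09 to 1.42) and Hspa1b (0.02 to 1.93) and negative throughout for Hspa5 (-2.37 to -0.20). Hspa1a (-0.32 to 1.15) changed sign in 2, Hspa8, Hsph1 and Hsp90aa1 in 3 each and Dnajb1 in 1. The 4 probe sets of Hspa1a and Hspa1b kept both pools of 3 on top as deposited, with median centring and with hybridization control scaling, where 5, 6 and 5 of the 25 heat shock probe sets and 5.66%, 4.94% and 6.79% of all tested had that order. Pseudocounts cannot change an order, and leaving out positive replicate 3, an alternative added after seeing the data, can only relax it (7 of 25, and 8.28% of all). As deposited the dimmer Dnajb1 probe set also had the order, and no probe set of Hspa5 or Hspa8 did. The call counts were less stable than the order of the Hspa1a and Hspa1b probe sets. In the 6 arrays limma called 12 probe sets (7 higher, 5 lower), 65 (57 and 8) with median centring, 680 with array weights, 2 with 1 probe set per gene, 4 with pool size as replicate block, and 0 as deposited, with hybridization control scaling or with a pseudocount of 64 (719, 1235 and 1045 at an unadjusted p under 0.05). Leaving out 1 array gave 0 (without negative replicate 1 or 3, with 447 and 971 at an unadjusted p under 0.05) to 99. In the 5 arrays it called 99, 47 with a pseudocount of 1, 22 without a filter, 394 with array weights, 879 with pool size as replicate block, where negative replicate 3 has no partner, and 0 as deposited or with hybridization control scaling (215 and 279 unadjusted). Leaving out a further array gave 36 (positive replicate 2) to 361 (positive replicate 1), both from fits with 1 positive array, assumed to vary like the negative ones. Array weights in the 6 arrays called 6 heat shock probe sets, 2 each of Hspb1 and Hspa1b and 1 each of Hspb8 and Hsp90aa1, and the block in the 5 arrays called these and 1 more of Hspb8. The causes were not tested. Signal near background limits Hspb8, the dim probe sets and most of positive replicate 3.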

Other observations

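Several genes outside the chaperones also separated both pools of 3 from the other 4 arrays by at least 0.5 on the log2 scale. Of 38 such probe sets, 34 were not of Hspa1a or Hspa1b. They were picked after their values were seen, and no theme was tested. The largest separation was that of Bnip3, a mitophagy receptor, at 1.12, followed by Acta2, smooth muscle actin, at 1.06 and Limch1 at 1.0. Both probe sets of Tpi1, a glycolytic enzyme, were among them at 0.92 and 0.75, as were the collagen prolyl hydroxylases P4ha1 at 0.86 and P4ha2 at 0.51, the lysyl hydroxylase Plod2 at 0.56, Slc2a3 at 0.73 and Pdk1 at 0.64. Mesenchymal transcription factors Shox2 and Tbx18 stood at 0.77 and 0.64, and the neighbouring imprinted long RNAs Meg3 and Rian at 0.78 and 0.74.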
